A study of Mus musculus with 2 samples.

Results

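Integrin alpha-v (Itgav) and the beta chains Itgb1, Itgb3, Itgb5 and Itgb8 were examined in single cells of the aortic root and ascending aorta of Marfan syndrome mice. The 5 genes were taken by name, as the target of the drug GLPG0187 and its partner chains, and all 5 were found among the 18920 genes of both libraries. Both libraries came from Fbn1C1041G/+ mice, which carry a mutant and a normal copy of fibrillin-1, at 16 weeks of age. Treated mice had received GLPG0187 daily from 6 to 16 weeks of age, an alpha-v inhibitor according to the submitters, and control mice had received vehicle over the same weeks. Each group is 1 library made from the aortas of as many males as females, digested together, so a difference between treatments cannot be told apart from a difference between pools. No wild-type library was analysed here, and no source used here says how many mice went into a pool.

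Integrins are receptors made of an alpha and a beta chain that tie matrix proteins outside the cell to the actin skeleton inside it. Alpha-v joins any of several beta chains, and most of the resulting receptors bind the Arg-Gly-Asp (RGD) motif of vitronectin, fibronectin, osteopontin, fibrillin-1 and the latent form of TGF-beta. Itgb8, like Itgb6, forms a receptor with alpha-v that is known for releasing active TGF-beta, Itgb3 and Itgb5 form the vitronectin receptors, and Itgb1 pairs with many other alpha chains, so its messenger level says little about the alpha-v pair. A messenger level is not the amount of receptor at the surface, which an inhibitor of binding would act on.

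The genes lie on different chromosomes of the mouse genome (GRCm38, GENCODE vM21 annotation), and the values are given per gene and not per transcript or exon. Itgav is at chr2:83724397-83806916 on the plus strand, with up to 30 exons in a coding transcript. Itgb1 is at chr8:128685654-128733200 (plus strand, up to 16 exons) and Itgb3 at chr11:104608000-104670476 (plus strand, 15 exons). Itgb5 is at chr16:33829665-33949338 (plus strand, up to 15 exons) and Itgb8 at chr12:119158022-119238802 (minus strand, 14 exons).

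Each deposited value is a whole number on a scale on which the authors had evened out depth, and levels are given below as a mean value per cell. Called doublets were removed, which left 4349 GLPG0187 and 2945 vehicle cells, with medians of 3766 and 3786 genes detected. The libraries shared 5 cell barcodes. Shares of cells above 0 carry exact Clopper-Pearson 95% intervals, which cover counting error only, and levels of different genes are not compared with each other. Clusters were named from marker lists, and 2 clusters were smooth muscle cell (SMC)-like. Cluster 0, led by Ptprz1 and Mylk4, held 1298 GLPG0187 and 549 vehicle cells, and cluster 4, led by Tnnt2, Timp4 and Nrgn, held 370 GLPG0187 and 282 vehicle cells. All 8 SMC markers passed in both, but the 10 leading genes of cluster 4 held 0 SMC markers and 1 pericyte marker, so the clusters are also given apart. Within the SMC-like cells, a modulated sub-cluster with low Myh11 (mean 10.3, against 50.5 in the remaining SMC-like cells) held 79 GLPG0187 and 149 vehicle cells, and a sub-cluster of 0 GLPG0187 and 32 vehicle cells was seen in the vehicle library alone.

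Itgav was detected in 67.1% (65.7 to 68.5) of GLPG0187 cells and 67.9% (66.2 to 69.6) of vehicle cells. Its highest means, 3.29 in GLPG0187 and 2.80 in vehicle cells, were in the Schwann-like cluster, which held only 24 and 40 cells. Among the large clusters it was highest in the Prss35/Tbx20 cluster and in fibroblast-like cluster 3, whose leading genes were Il6, Adamts4 and Ptgs2. The Prss35/Tbx20 cluster had a mean of 1.90 in GLPG0187 and 1.85 in vehicle cells, with Itgav above 0 in 77.7% (74.9 to 80.4) and 77.8% (74.6 to 80.8) of them. Cluster 3 had a mean of 1.98 in GLPG0187 and 1.62 in vehicle cells, and the intervals of its shares, 75.7% (71.0 to 79.9) and 74.4% (68.8 to 79.4), overlap those of the Prss35/Tbx20 cluster. Fibroblast-like cluster 2, which carries the adventitial genes Clec3b and Pi16, was lower, at 1.19 and 1.24, with 58.2% (54.4 to 62.0) and 61.7% (57.6 to 65.6) of cells above 0. Its intervals lie below those of cluster 3 in both libraries, so the fibroblast-like clusters differed in Itgav detection beyond counting error. Cluster 2 also had fewer genes detected, with medians of 3340.5 in GLPG0187 and 3240 in vehicle cells, against 3473 and 3660 in cluster 3. The part of genes detected in this difference was not tested.

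Within the SMC-like cells, Itgav was highest in the modulated sub-cluster. Its mean there was 2.08 in GLPG0187 and 1.97 in vehicle cells, against 1.10 and 1.04 in the remaining SMC-like cells. It was above 0 in 81.0% (70.6 to 89.0) and 85.9% (79.3 to 91.1) of modulated cells, against 65.6% (63.2 to 68.0) and 62.9% (59.2 to 66.5) of the remaining SMC-like cells, and the intervals do not overlap in either library. The median number of genes detected was 4149 and 4145 in modulated cells, against 4020 and 4137.5 in the remaining SMC-like cells. Clustering used variable genes that could include integrins, so a difference between clusters is a description. Clustering without integrin genes moved 0 of 80 shares of the cell classes out of their intervals. The modulated sub-cluster was not redrawn in that check, and single clusters were not compared. Endothelial-like cells had the lowest Itgav among clusters with over 20 cells a library, with cluster 9, led by Gpihbp1, at 0.409 in GLPG0187 and 0.167 in vehicle cells.

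Itgb1 was weighted to SMC-like cells. Its mean was 29.6 in GLPG0187 and 27.2 in vehicle cells of cluster 0, 22.8 and 21.4 in cluster 4, and 22.0 and 22.1 in modulated cells. Endothelial-like cells followed at 13.1 and 12.4, and fibroblast-like cells at 9.36 and 9.88. The lowest of the clusters with at least 20 cells a library was the macrophage-like one, at 7.08 and 6.83, which makes the range from highest to lowest cluster 4.18-fold among GLPG0187 and 3.99-fold among vehicle cells. Detection says nothing further here, because all but 6 GLPG0187 cells, all in the Prss35/Tbx20 cluster, and every vehicle cell had Itgb1 above 0. SMC-like cells held 66.6% of the summed Itgb1 value of GLPG0187 cells and 52.1% of that of vehicle cells, while they made up 38.4% and 28.2% of the cells.

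Itgb3, the chain of the classical vitronectin receptor, was found in SMC-like and in some endothelial-like cells. It was above 0 in 39.3% (36.6 to 42.0) of GLPG0187 and 39.0% (34.9 to 43.2) of vehicle cells of cluster 0. Cluster 4 was lower, with 28.9% (24.3 to 33.8) and 24.8% (19.9 to 30.3), below cluster 0 in both libraries with no overlap of intervals. Of all cells with Itgb3 above 0, 80.5% of those from GLPG0187 mice and 74.5% of those from vehicle mice were SMC-like. The Prss35/Tbx20 cluster was the lowest of the large clusters, with Itgb3 above 0 in 0.773% (0.311 to 1.59) and 0.281% (0.0340 to 1.01) of cells at medians of 3840.5 and 4037 genes. Macrophage-like cells were near that level, with 2.65% (1.22 to 4.97) and 1.67% (0.345 to 4.79), whereas fibroblast-like cells stood above it with 6.52% (5.11 to 8.18) and 5.82% (4.36 to 7.58).

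The endothelial-like cells divided sharply in Itgb3. In the sub-cluster led by Ccl21a, Mmrn1 and Lyve1, in which all 6 lymphatic markers were above 0 in at least 25% of cells, Itgb3 was above 0 in 44.6% (34.2 to 55.3) of 92 GLPG0187 cells and 45.3% (31.6 to 59.6) of 53 vehicle cells, with means of 0.891 and 0.868. In the sub-cluster led by Cytl1, Sfrp1 and Gkn3, with the arterial gene Gja5 among its leading genes, it was above 0 in 15.6% (6.49 to 29.5) and 7.69% (0.946 to 25.1) of cells. In the sub-cluster led by Rgcc, Rgs5 and C1qtnf9 it was above 0 in 8.70% (1.07 to 28.0) and 4% (0.101 to 20.4). The interval of the Lyve1-bearing cells lies above those of both other sub-clusters in each library. These sub-clusters were formed from all variable genes, which could include integrins.

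Itgb5 was broad, and its highest means lay in modulated SMC-like cells, at 7.34 in GLPG0187 and 8.06 in vehicle cells, against 4.06 and 3.83 in the remaining SMC-like cells. Fibroblast-like cluster 3 had 5.34 and 6.32, and fibroblast-like cluster 2 had 2.86 and 3.16. SMC-like cluster 4 had 4.94 and 6.35, and cluster 0 had 4.01 and 3.69. The cartilage- or valve-like cells, led by Chil1, Spp1 and Chad, had 3.06 and 3.53. Itgb5 was lower in the Prss35/Tbx20 cluster, at 1.54 and 1.38, and lower still in endothelial-like cells, at 0.619 and 0.596, where 44.4% (36.5 to 52.4) and 46.2% (36.3 to 56.2) of cells were above 0. The 17 GLPG0187 and 9 vehicle dendritic-like cells had means of 0.176 and 0.333. Thus the Prss35/Tbx20 cluster was among the highest for Itgav and among the lowest for Itgb3. For Itgb5 it lay below the SMC-like, fibroblast-like and cartilage- or valve-like clusters and above the endothelial-like and dendritic-like cells.

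Itgb8 had another order. Schwann-like cells led, with means of 2.75 in 24 GLPG0187 cells and 1.75 in 40 vehicle cells, and wide shares of 54.2% (32.8 to 74.4) and 32.5% (18.6 to 49.1). Cartilage- or valve-like cells had means of 1.09 and 1.03, with 46.6% (39.1 to 54.2) and 41.7% (34.6 to 49.0) of cells above 0. The Prss35/Tbx20 cluster had 0.742 and 0.603, with 42.3% (39.0 to 45.6) and 37.9% (34.3 to 41.6), and the intervals of these clusters overlap. Fibroblast-like cluster 3 had 0.561 and 0.722, with 35.7% (30.9 to 40.8) and 41.5% (35.7 to 47.6). Its mean was above that of the Prss35/Tbx20 cluster in the vehicle library, and the intervals of the 2 overlap in both libraries. Fibroblast-like cluster 2 was lower, at 0.418 and 0.372. SMC-like cluster 4 (29.2%, 24.6 to 34.1, and 28.0%, 22.9 to 33.6) exceeded cluster 0 (18.2%, 16.1 to 20.4, and 17.1%, 14.1 to 20.5), the reverse of their order in Itgb3. Macrophage-like cells, at 1.18% (0.321 to 2.98) and 3.89% (1.58 to 7.85), and endothelial-like cells, at 3.12% (1.02 to 7.14) and 0.962% (0.0243 to 5.24), had the lowest shares of the classes with over 20 cells a library. Itgb6, the epithelial partner of alpha-v, was above 0 in 4 of 4349 GLPG0187 cells and 3 of 2945 vehicle cells.

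**Figure D1:**
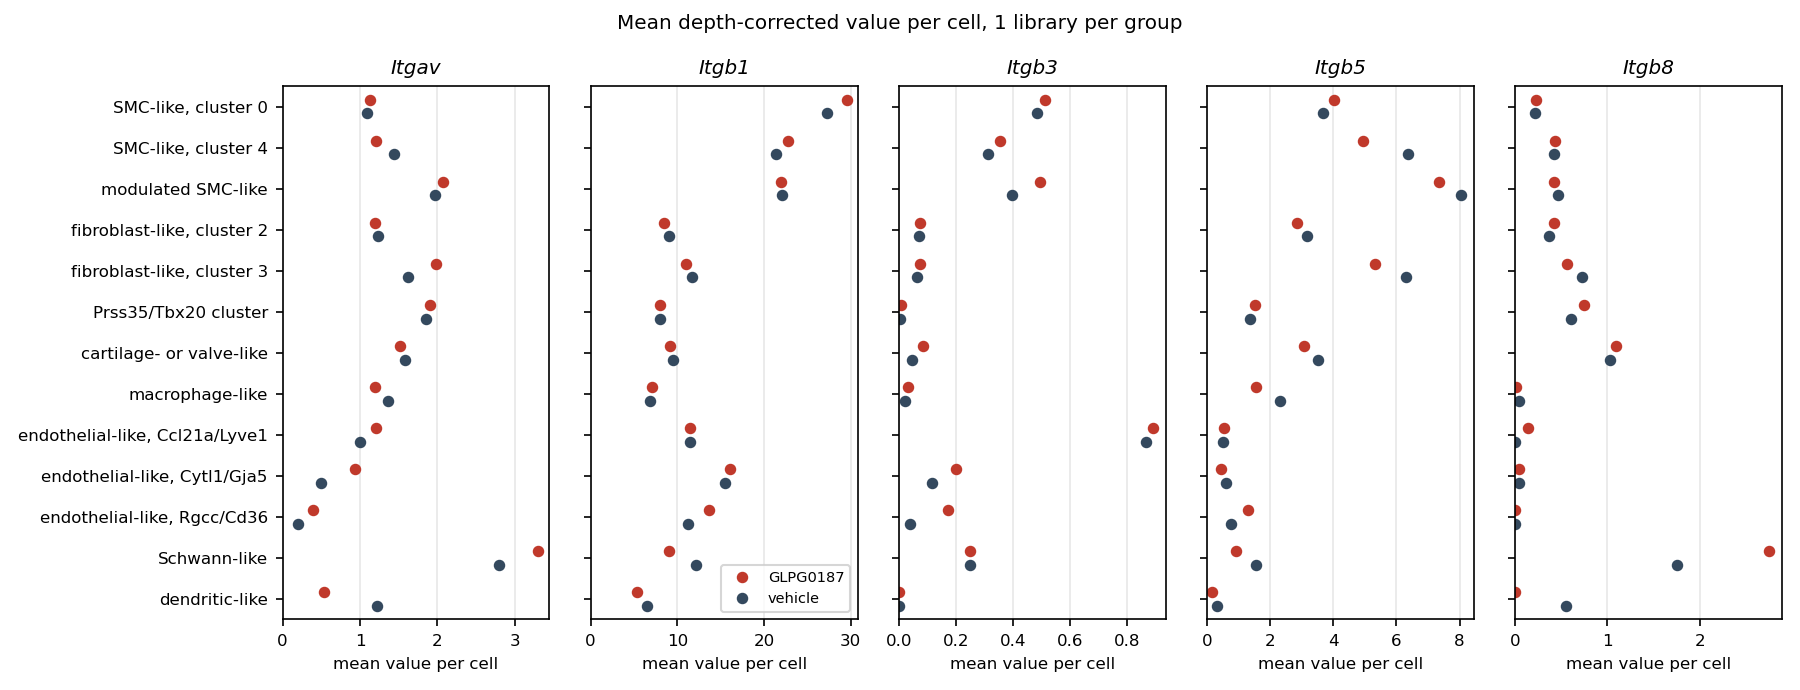
Mean depth-corrected value per cell (x axis, linear, a scale of its own for each gene) in clusters and sub-clusters (y axis), GLPG0187 above vehicle; each point is 1 library and has no replicate error. Itgb1 is highest in the SMC-like rows, Itgb3 in the SMC-like and Ccl21a/Lyve1 rows, Itgb5 in modulated SMC-like cells (7.34 and 8.06) and Itgb8 in Schwann-like cells (2.75 and 1.75).

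**Figure D2:**
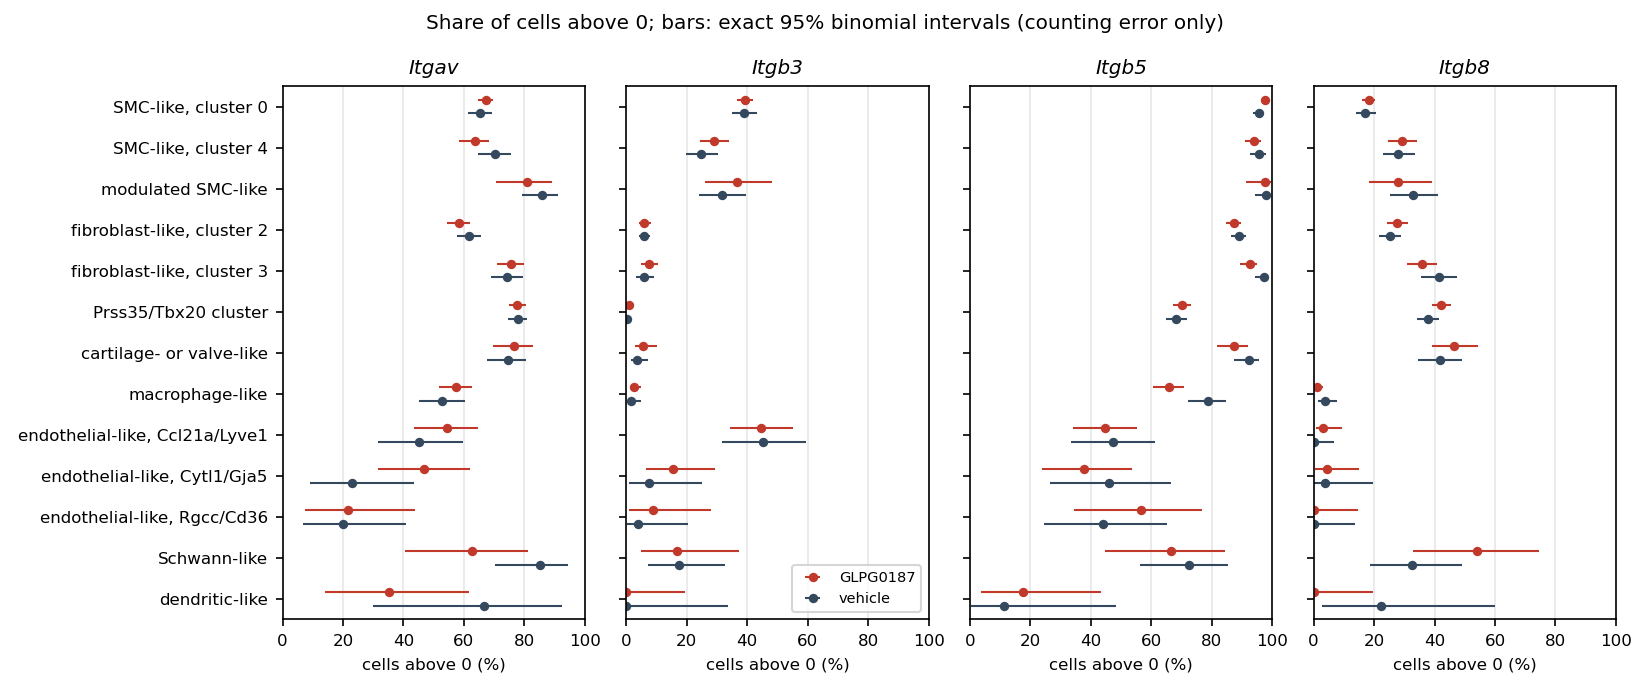
Share of cells above 0 (x axis, percent) for the members other than Itgb1, GLPG0187 above vehicle; bars are exact 95% binomial intervals over cells. Itgb3 splits the endothelial-like sub-clusters, with 44.6% and 45.3% in the Ccl21a/Lyve1 row.

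The order of clusters was alike in the libraries. Over the 10 clusters with at least 20 cells in each library, Spearman's rho between the cluster means of the libraries was 0.99 for Itgav, 0.88 for Itgb1, 0.78 for Itgb3, 0.95 for Itgb5 and 0.98 for Itgb8, as a description over clusters that share a library and a gene model. Over both libraries' clusters joined (20 points, log2 means), Itgav varied most like Itgb8 among the members (Pearson's r 0.83), and its r was 0.30 with Itgb5, 0.15 with Itgb3 and -0.17 with Itgb1. Small clusters lay at both ends of the Itgav and Itgb8 profiles. Cluster 9 (22 GLPG0187 and 24 vehicle cells) had the lowest Itgav and Itgb8 at 0, where the 0.01 added before the log sets the point. Schwann-like cells (24 and 40) were highest for both. The r values between members are given at this setting alone. Itgb1 and Itgb3 varied alike, with r of 0.70. Among 12658 genes, the profile closest to Itgb1 was that of Tpm1 (r 0.96), a tropomyosin of the contractile filament, followed by Actn1, Smtn, Mustn1 and Sost (0.94 or above). Among the closest to Itgav were Extl2, Tspyl2, Usp11 and Sp3os (0.94 to 0.91), and to Itgb8 Prkca, a protein kinase C gene, Snx7, Wdr35, Espn and Tmem5 (0.97 to 0.93). Itgb3 was closest to Chmp4c, Prss23, S100a11, Spsb1 and A430105I19Rik (0.88 to 0.85) and Itgb5 to Lamc3, a laminin chain gene, Gabre, Rgs17, Psd and Prkab2 (0.92 to 0.87). These lists depend on the settings. At resolution 1.0, 2 of 5 genes were shared for Itgav, 3 for each of Itgb1, Itgb3 and Itgb8, and 1 for Itgb5. With 0.1 in place of 0.01 added before the log, 4 were shared for Itgav, 5 for Itgb1, 3 for each of Itgb3 and Itgb5, and 2 for Itgb8.

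The comparison of GLPG0187 with vehicle asks whether blocking the receptor went with other messenger levels of its chains. In the SMC-like cells none of the 5 members differed by 1.5-fold, the size used to call a gene, against 0.493% of 10747 measured genes called higher and 2.74% called lower. The log2 ratios of GLPG0187 over vehicle were -0.07 for Itgav, 0.16 for Itgb1, 0.17 for Itgb3, -0.12 for Itgb5 and -0.08 for Itgb8. The means behind them were 1.15 and 1.21 for Itgav, 28.1 and 25.3 for Itgb1, 0.478 and 0.426 for Itgb3, 4.22 and 4.59 for Itgb5, and 0.270 and 0.285 for Itgb8, GLPG0187 and vehicle in each pair. The ratios of the SMC-like parts differed: in cluster 0 the 5 lay between 0.06 (Itgav, Itgb8) and 0.13 (Itgb1, Itgb5), while in cluster 4 Itgav was at -0.24 and Itgb5 at -0.35. In the modulated sub-cluster (79 GLPG0187 and 149 vehicle cells) Itgav was at 0.08 and Itgb5 at -0.13. In the SMC-like sub-cluster led by Cpxm2 and Tnnt2 they were at 0.10 and -0.07. The part of modulated cells in the cluster 4 ratios was not tested. No member was called in cluster 0, where 0.502% of genes were called higher and 1.5% lower, or in cluster 4, where 1.71% and 2.75% were. The same held for the modulated cells (1.61% of genes higher, 2.14% lower) and for the SMC-like cells without them (0.513% and 1.5%). The modulated sub-cluster made up more of the vehicle cells, and without it the ratios of Itgav and Itgb5 were 0.08 and 0.09. Their sign also turned in other subsets, with 0.076 for Itgav among cells in the middle of the range of genes detected and 0.036 for Itgb5 in cells with Xist and no Y-linked gene. With 1 library a group none of these differences has a replicate check.

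Across 8 cell classes, 29 of the 40 pairs of a member and a class had a summed value of at least 100 and were measured. Of these, 1 was called higher and 1 lower. The share of all measured genes called higher, and then lower, was 2.52% and 1.2% in fibroblast-like cells, 1.63% and 1.56% in the Prss35/Tbx20 cluster, and 2.59% and 1.43% in cartilage- or valve-like cells. It was 6.32% and 3.17% in macrophage-like, 5.02% and 3.8% in endothelial-like, 7.04% and 4.95% in Schwann-like and 7% and 9.8% in dendritic-like cells. Itgb5 was lower in macrophage-like cells of the GLPG0187 library, with a mean of 1.55 in 340 GLPG0187 cells and 2.31 in 180 vehicle cells. The log2 ratio was -0.60, just past the 1.5-fold line. The share above 0 was 65.9% (60.6 to 70.9) in GLPG0187 and 78.9% (72.2 to 84.6) in vehicle cells, without overlap. In macrophage-like cells with the tissue-resident genes Lyve1 or Folr2 above 0, means were 1.21 in 141 GLPG0187 cells and 1.73 in 88 vehicle cells (log2 ratio -0.55), and in cells with both at 0 they were 1.80 and 2.86 (-0.69). Cells with Xist and no Y-linked gene gave -1.27 and cells with Y-linked genes and no Xist gave -0.52, so the direction was the same in cells of females and of males, although the call was lost in the cells of males. The macrophage-like cells also carried messengers of other cells: the 8 SMC markers summed to a mean of 21.5 in GLPG0187 and 10.6 in vehicle cells, and the 12 fibroblast markers to 23.7 and 21.8, and their part in the Itgb5 result was not tested. Itgav in the same cells was at 1.20 and 1.37 (log2 ratio -0.22).

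The pair called higher was Itgb8 in Schwann-like cells, at a log2 ratio of 0.68. It rests on 24 GLPG0187 and 40 vehicle cells, and the shares above 0 overlap. This cluster also held cells with pigment-cell genes: the 5 melanocyte markers summed to a mean of 24.8 in GLPG0187 and 63.2 in vehicle cells. In the 21 GLPG0187 and 31 vehicle cells in which the pigment-cell genes Dct, Pmel, Tyrp1 and Mlana summed to under 2, the Itgb8 means were 3.05 and 2.26, a log2 ratio of 0.47 that does not reach 1.5-fold. Just inside that line lay Itgav in endothelial-like cells, with means of 1.01 and 0.683 and a log2 ratio of 0.54. Its shares above 0, 47.5% (39.6 to 55.5) and 33.7% (24.7 to 43.6), overlap, and the ratio was 0.25 in the Ccl21a/Lyve1 sub-cluster. The 12 fibroblast markers summed to a mean of 47.4 in GLPG0187 and 28.9 in vehicle endothelial-like cells, and their part in the ratio was not tested. In the Prss35/Tbx20 cluster, Itgb8 was at 0.31 and, among cells in the middle of the range of genes detected, at 0.66, which is past 1.5-fold.

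**Figure D3:**
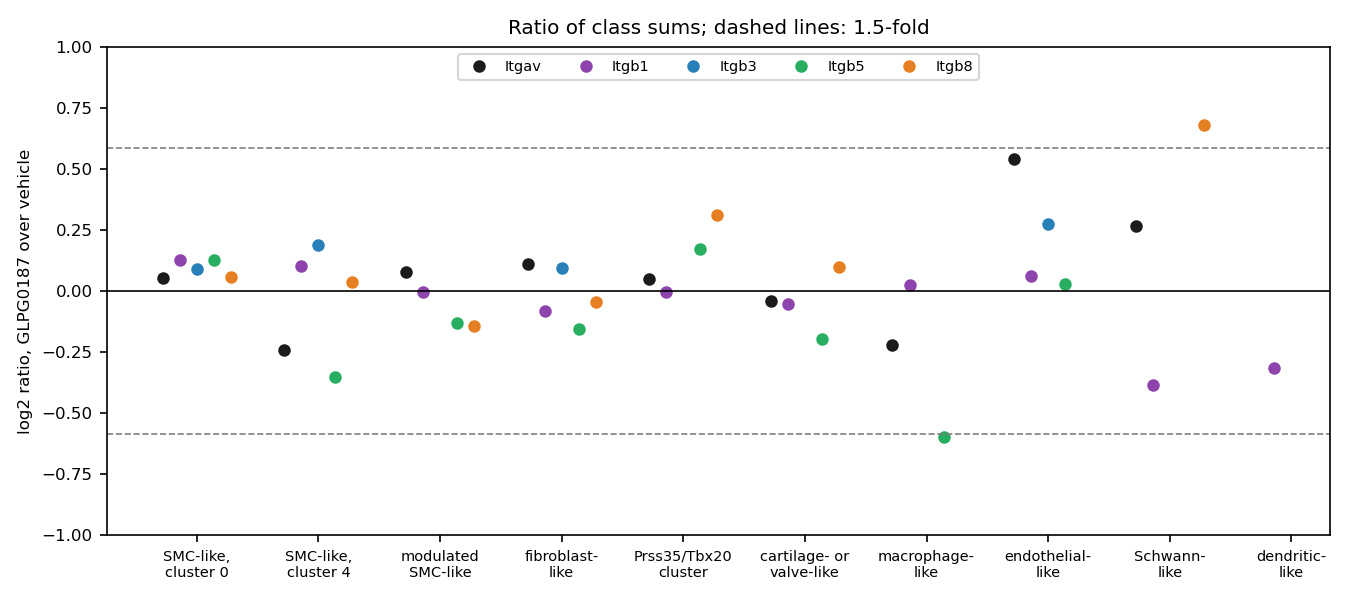
Log2 ratio of GLPG0187 over vehicle (y axis) of each measured member by cell class, with the SMC-like class shown by its parts; dashed lines mark 1.5-fold and no error bar is drawn because each group is 1 library. The pairs past the lines are Itgb5 in macrophage-like cells (-0.60) and Itgb8 in Schwann-like cells (0.68).

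Over all cells of a library, Itgb1 and Itgb3 differed more than they did within SMC-like cells. SMC-like cluster 0 made up 29.8% (28.5 to 31.2) of GLPG0187 cells and 18.6% (17.2 to 20.1) of vehicle cells. The mean over all cells was 16.2 and 13.7 for Itgb1 (log2 0.24) and 0.232 and 0.166 for Itgb3 (0.48), the members weighted to SMC-like cells. With every cluster held at its mean share of the libraries, the log2 differences were 0.05 for Itgb1 and 0.13 for Itgb3. For the other members the held and unheld log2 differences were 0.02 and -0.04 for Itgav, -0.11 and -0.07 for Itgb5, and 0.13 and -0.09 for Itgb8. Holding the shares thus made the differences of Itgb1 and Itgb3 smaller, and not those of Itgb5 and Itgb8.

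Co-detection was read as the share of cells with Itgav and a beta chain both above 0. Itgb1 accompanied Itgav in nearly every cell, so the shares for that pair equal those of Itgav. In SMC-like cells Itgav and Itgb5 were found together in 64.5% (62.2 to 66.8) of GLPG0187 and 64.7% (61.4 to 68.0) of vehicle cells. Itgav and Itgb3 were found together in 26.4% (24.3 to 28.6) and 24.3% (21.4 to 27.4), and Itgav and Itgb8 in 13.6% (12 to 15.3) and 15.8% (13.4 to 18.4). The intervals of the libraries overlap for each pair. The observed shares were 1.08 and 1.06 times the product of the single shares for Itgb3, 1.004 and 1.01 times for Itgb5, and 0.99 and 1.13 times for Itgb8. For comparison, the median of this ratio between Itgav and every gene detected in 5 to 95% of SMC-like cells was 1.02 in GLPG0187 and 1.01 in vehicle cells, with an upper quartile of 1.04 in both. Itgb3 in both libraries and Itgb8 in the vehicle library lay above that quartile, and Itgb8 in the GLPG0187 library lay below the median. The compared genes were not matched by share of cells. This ratio is held near 1 for genes found in most cells, so a place above the quartile depends also on how often a gene is found. Itgb1 and Itgb5 were above 0 in more than 95% of cells and so lay outside that comparison.

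Where Itgav was above 0, Itgb3 was found in 39.8% (36.9 to 42.8) of GLPG0187 and 36.3% (32.3 to 40.4) of vehicle SMC-like cells, against 31.4% (27.6 to 35.4) and 29.9% (24.6 to 35.7) where Itgav was at 0. The intervals separate in the GLPG0187 library and not in the vehicle library. Cells with Itgav above 0 also had more genes detected, with medians of 4093 against 3912 in GLPG0187 and 4163 against 4050 in vehicle cells. In 3 bins by genes detected, from the fewest to the most, the Itgb3 shares of GLPG0187 cells with and without Itgav were 28.8% and 17.9%, 41.5% and 38.2%, and 46.9% and 45.03%. Those of vehicle cells were 22.6% and 16.8%, 40.0% and 39.0%, and 44.04% and 39.3%. The widest gap was in the bin with the fewest genes in both libraries, and intervals separated only there in GLPG0187 cells (23.9 to 34.1 with Itgav, 13.3 to 23.4 without). Itgb8 was found in 20.5% (18.2 to 23.0) of GLPG0187 SMC-like cells with Itgav and 20.9% (17.6 to 24.5) of those without, whereas the vehicle shares were 23.5% (20.1 to 27.3) and 15.3% (11.3 to 20.1). By the same bins, the Itgb8 shares with and without Itgav were 14.6% and 16.2%, 20.2% and 19.4%, and 25.4% and 29.8% of GLPG0187 cells. Those of vehicle cells were 15.9% and 9.73%, 20.5% and 11.7%, and 33.2% and 26.2%. In the Prss35/Tbx20 cluster, the Itgb8 shares with and without Itgav were 43.5% (39.8 to 47.2) and 38.1% (31.4 to 45.2) of GLPG0187 cells, and 41.3% (37.2 to 45.6) and 25.9% (19.3 to 33.5) of vehicle cells. Its cells with Itgav also had more genes detected, with medians of 3992 against 3384 in GLPG0187 and 4140 against 3660 in vehicle cells. In the same bins, its GLPG0187 shares with and without Itgav were 20.1% and 30.1%, 43.04% and 49.2%, and 59.7% and 45.8%, so the direction turned in 2 of the 3 bins. Its vehicle shares were 25.8% and 18.3%, 39.01% and 29.1%, and 54.4% and 47.6%, and the intervals overlap in each bin. Whether the libraries differ in this link was not tested.

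In fibroblast-like cells, Itgb3 was found in 8.94% (6.91 to 11.3) of GLPG0187 cells with Itgav and 2.13% (0.923 to 4.15) of those without, against 6.08% (4.27 to 8.35) and 5.32% (3.07 to 8.49) in the vehicle library. Fibroblast-like cells with Itgav had more genes detected (3518 against 3149.5 in GLPG0187, 3553 against 3080 in vehicle cells). In the 3 bins by genes detected, the GLPG0187 shares with and without Itgav were 6.32% and 0.559%, 5.17% and 2.50%, and 13.8% and 5.19%. The vehicle shares were 2.78% and 2.70%, 5.50% and 5.43%, and 8.62% and 11.5%. In endothelial-like cells the link of Itgav with Itgb5 ran in opposite directions: 35.5% (24.9 to 47.3) with and 52.4% (41.2 to 63.4) without Itgav in GLPG0187 cells, and 57.1% (39.4 to 73.7) with and 40.6% (28.9 to 53.1) without in vehicle cells. Those intervals overlap within each library.

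**Figure D4:**
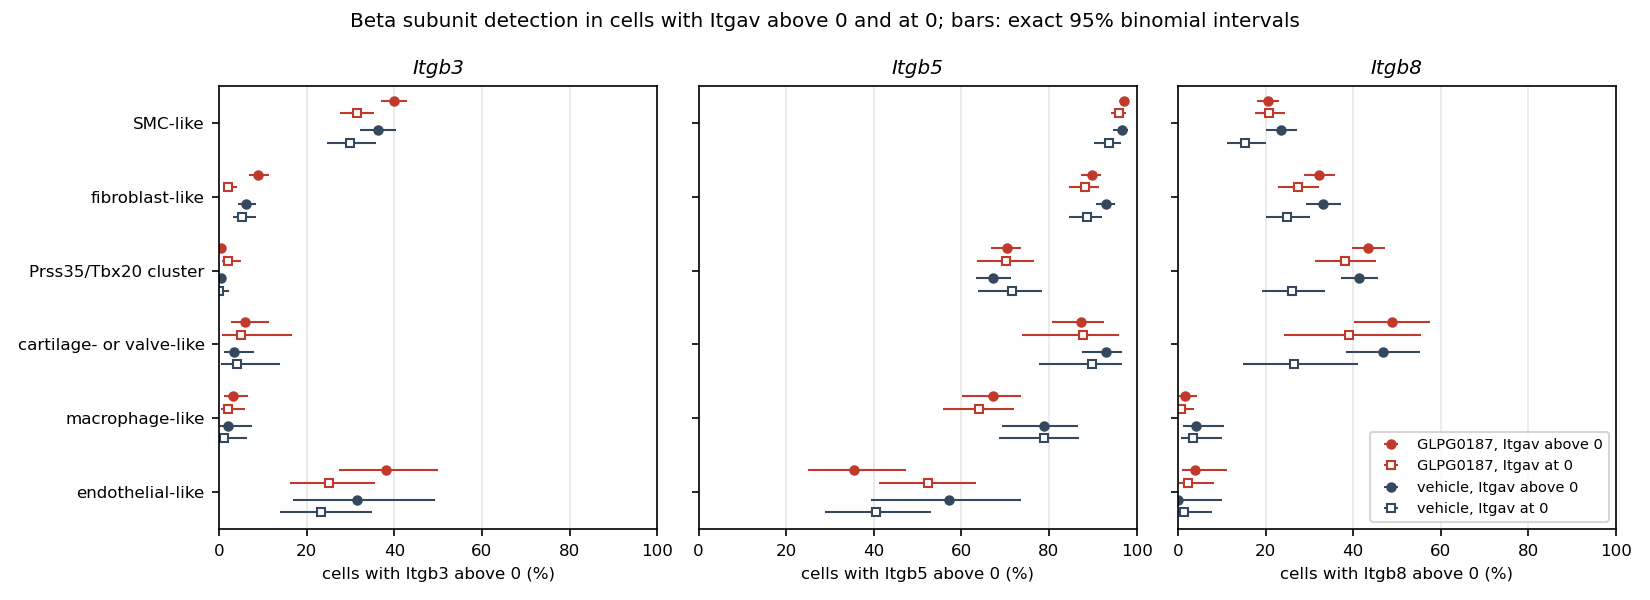
Share of cells with Itgb3, Itgb5 or Itgb8 above 0 (x axis, percent) in cells with Itgav above 0 (filled circles) and at 0 (open squares), by class and library, GLPG0187 above vehicle; bars are exact 95% binomial intervals. Most pairs of intervals overlap, and Itgb8 in vehicle cells of the Prss35/Tbx20 cluster (41.3% and 25.9%) is among those that do not.

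The beta chains present beside Itgav set the cell classes apart. Among SMC-like cells with Itgav above 0, Itgb5 was the only one of Itgb3, Itgb5 and Itgb8 detected in 45.3% (42.4 to 48.3) of 1107 GLPG0187 cells and 46.3% (42.1 to 50.6) of 557 vehicle cells. Itgb3 and Itgb5 together were found in 31.6% (28.9 to 34.4) and 27.5% (23.8 to 31.4), and all 3 chains in 7.32% (5.85 to 9.01) and 8.62% (6.42 to 11.3). No chain but Itgb1 was detected in 1.72% (1.04 to 2.67) and 2.51% (1.38 to 4.18). In the Prss35/Tbx20 cluster, the combination of Itgb5 and Itgb8 was found in 29.97% (26.6 to 33.5) and 30.9% (27 to 34.9), Itgb8 without Itgb3 or Itgb5 in 13.2% (10.8 to 15.9) and 10.5% (8.05 to 13.3), and none of the 3 in 16.3% (13.7 to 19.3) and 22.2% (18.8 to 25.9). The detected partners of these cells thus lacked Itgb3 almost wholly and held Itgb8 more often than those of SMC-like cells. Fibroblast-like cells with Itgav held Itgb5 with Itgb8 in 26.7% (23.4 to 30.2) of GLPG0187 and 29.0% (25.3 to 32.9) of vehicle cells. Those intervals overlap the ones of the Prss35/Tbx20 cluster in both libraries. Itgb8 without Itgb3 or Itgb5 was found in 2.64% (1.57 to 4.14) and 0.868% (0.282 to 2.01) of the fibroblast-like cells with Itgav.

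Among cartilage- or valve-like cells with Itgav, Itgb5 with Itgb8 was found in 40.0% (31.7 to 48.8) of GLPG0187 and 42.0% (33.8 to 50.5) of vehicle cells. Macrophage-like cells with Itgav held Itgb5 alone in 64.6% (57.5 to 71.3) and 73.7% (63.6 to 82.2), and none of the 3 in 30.8% (24.4 to 37.8) and 21.1% (13.4 to 30.6). Endothelial-like cells were the class with Itgb3 in the absence of Itgb5 and Itgb8, in 27.6% (18.0 to 39.1) of 76 GLPG0187 cells and 14.3% (4.81 to 30.3) of 35 vehicle cells with Itgav. In SMC-like cells that combination was found in 0.813% (0.372 to 1.54) and 0.180% (0.00455 to 0.996). A chain that is present at a low level can go undetected, so these shares describe detection and not the true absence of a chain.

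**Figure D5:**
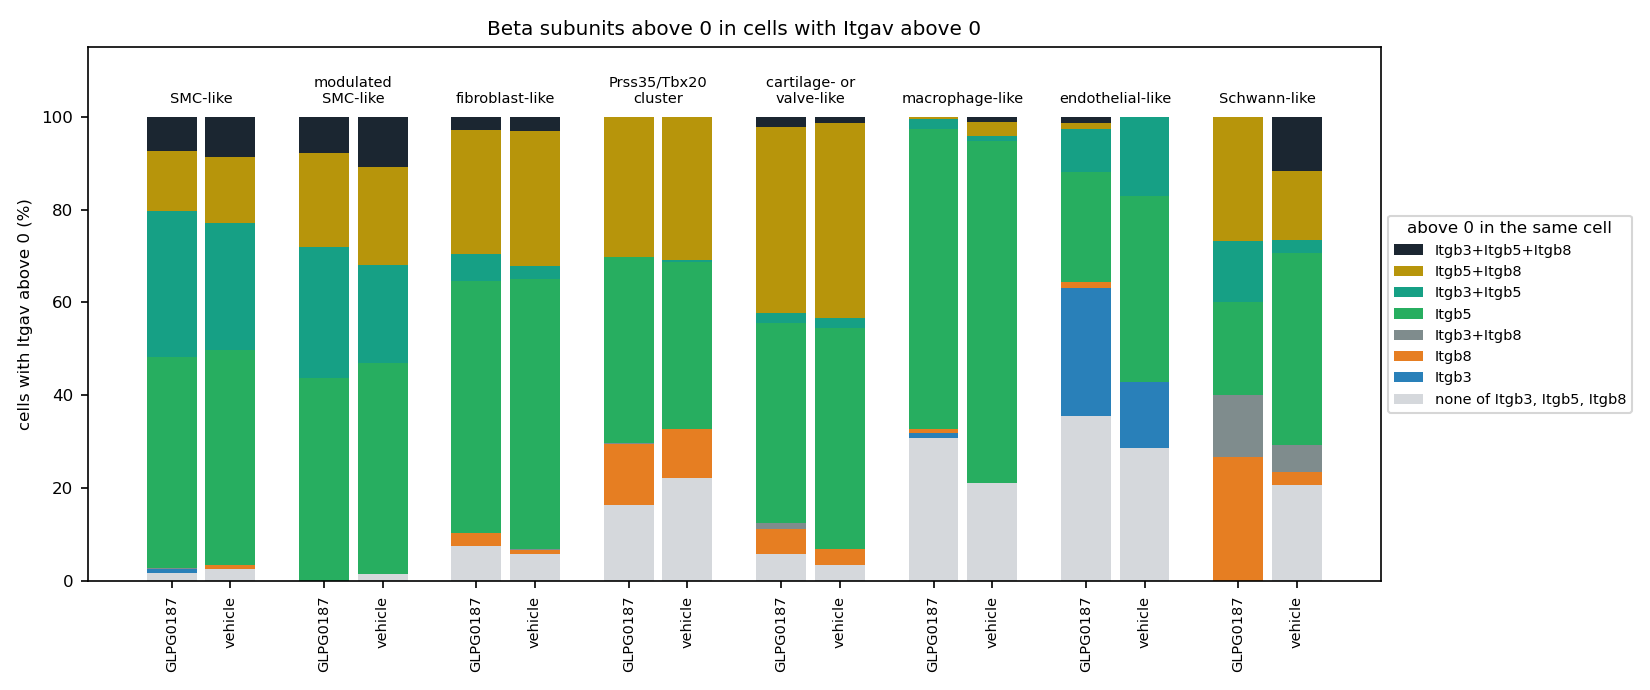
Share of cells with Itgav above 0 (y axis, percent) that hold each combination of Itgb3, Itgb5 and Itgb8 above 0, by class, GLPG0187 left of vehicle. Green tones with Itgb5 fill most of the SMC-like bars. Orange and ochre parts with Itgb8 are large in the Prss35/Tbx20 and cartilage- or valve-like bars. The ochre part, Itgb5 with Itgb8, is also seen in the fibroblast-like bars (26.7% and 29.0%). Blue parts with Itgb3 alone appear in the endothelial-like bars (27.6% and 14.3%).

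Genes that work with these chains were read from fixed lists in SMC-like cells. Of the ligands with an RGD motif or known to bind alpha-v, 16 of 21 were measured, 0 were called higher and 2 lower, with a median log2 ratio of -0.14 against -0.05 over all measured genes, of which 0.493% were called higher and 2.74% lower. The called genes were Ctgf, a matricellular protein, with means of 25.4 in GLPG0187 and 43.9 in vehicle cells (log2 ratio -0.78), and Spp1, which encodes osteopontin, with 0.193 and 0.475 (-1.30). In modulated cells Spp1 ran the other way, with 2.29 and 1.26 (0.87), and Ctgf was at 50.2 and 67.1 (-0.42). Of the latent TGF-beta genes and their presenters, 8 of 9 were measured and 1 was called lower, against 2.74% of all measured genes. It was Tgfb1, with 0.436 and 0.697 (-0.67). Without the modulated cells Tgfb1 was at 0.372 and 0.441 (-0.25), which is not called.

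Of the other alpha chains that pair with Itgb1, 7 of 9 were measured and 1 was called lower, again against 2.74% of all measured genes. It was the collagen receptor chain Itga11, with 0.0360 and 0.107 (-1.56). It was not measured in cluster 0 or without the modulated cells, where its summed value was under 100. Of the RGD-binding or alpha-v related chains, 3 of 4 were measured and 0 were called. Itga5, the fibronectin receptor chain, had 2.74 and 1.98 (0.47) in SMC-like cells and was past 1.5-fold in cluster 4, with 1.28 and 0.833 (0.63). Itga8, a chain that binds RGD with Itgb1, had 19.3 and 16.0 (0.27). Genes that bind integrin tails, such as talins and kindlins, had 17 of 20 measured and 0 called, with a median of 0.09, and genes of integrin trafficking and turnover had 6 of 7 measured and 0 called, with a median of 0.02.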

How the data were processed

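Single-cell RNA was captured from pooled aortas with the 10x Genomics 3' chemistry, per the labels' protocols. Cell Ranger, Seurat and the build mm10 are named per the submitters' processing notes, without versions or roles. The deposited values were handled as a score, since they cannot be UMI counts: per-cell totals ran from 12078 to 16719 and varied by 5.69% (GLPG0187) and 5.81% (vehicle; SD over mean), so the authors had evened out depth before deposit. The sources used here do not say how, and the raw depth is unknown. The fixed design assumed that counts were possible; with a score, no interval on summed values was drawn. No count model, Poisson interval or p-value was therefore used, and cells are not replicates.

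Scrublet in scanpy 1.11.5 called 48 (1.09%) GLPG0187 and 16 (0.540%) vehicle cells as doublets, which were removed. Log-transformed values of 2000 variable genes, without mitochondrial, ribosomal, Xist, Tsix and Y-linked genes, were reduced to 30 principal components (scikit-learn 1.9.0). Leiden clusters were drawn at resolution 0.5 over 20 neighbours (igraph 0.11.9). A cluster was named where at least 3 markers of a class, and 75% of them, were above 0 in 25% of its cells and over 3 times the median of clusters. Leading genes were taken among those above 0 in 25% of the cluster's cells. Naming thresholds were set after the values were seen. Sub-clusters were drawn in the same way.

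Values were summed per class and library and divided by the class total, with 1 added to each sum. Genes with a summed value of at least 100 were measured and called by size at 1.5-fold. The method was tried on simulated counts of large sets of cells, with planted changes and no difference between pools. That trial does not cover small classes or a score that is not a count. Likeness used log2(mean + 0.01) over genes with a mean of at least 0.1 in a cluster. The genes named are the 5 members, listed genes past 1.5-fold with a mean of at least 0.1 in SMC-like cells, and the 5 genes most like each member, of which 1 is not reported here. Itga5, Itga8 and the Lyve1, Folr2 and pigment-cell splits were chosen after values were seen. The members and lists were chosen with earlier results of these data known. Alternatives changed the clustering, doublets, scaling, filter, added value, detection limit, depth range and sex of the cells. Plots were made with matplotlib 3.10.9.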

Additional observations from a re-analysis of the deposited data

How the results depend on the processing

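With 1 library a group, nothing here separates treatment from the pools of mice, and intervals cover counting over cells only. No paired analysis was possible because each group holds 1 library. A log2 ratio was called moved past a change of 0.15, a limit set after the values were seen. Of 317 recomputed log2 ratios 26 changed and 0 reversed a call. A reversal was possible only for the called pairs, Itgb5 in macrophage-like and Itgb8 in Schwann-like cells. The 29 ratios recomputed without a filter are the reported ones and could not change. Signs of some ratios that were not called did turn, as given below. Of 544 recomputed co-detection shares 116 left the interval of the share reported. Resolution 1.0, clustering without integrin genes and genes scaled within libraries moved 0 of either.

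In SMC-like cells, leaving out modulated cells gave log2 ratios of 0.079 for Itgav, 0.086 for Itgb5 and 0.10 for Itgb8. Cells in the middle range of genes detected gave 0.076 for Itgav and 0.12 for Itgb8, Xist-only cells gave 0.036 for Itgb5, and clusters taken alone, a choice made after seeing the data, gave 0.13 (cluster 0) and -0.35 (cluster 4) for Itgb5 and -0.24 (cluster 4) for Itgav. The ratios of Itgb1 ran from 0.09 to 0.22 and of Itgb3 from 0.09 to 0.23 over 14 alternatives. The number of genes 1.5-fold higher was 53 as reported, 706 with no filter and 136 in cluster 4; the number lower was 295, and 4301 with no filter, 152 in cluster 0 and 158 without modulated cells. Sums without a filter include genes seen in few cells.

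For SMC-like co-detection, a limit of 2 gave 32.1% in GLPG0187 and 33.0% in vehicle cells for Itgav with Itgb1, 3.06% and 2.53% with Itgb3, 28.5% and 28.8% with Itgb5, and 1.44% and 2.17% with Itgb8. The middle range of genes detected gave 70.2% and 70.2% with Itgb1, 68.2% and 69.2% with Itgb5, and 28.0% with Itgb3 in vehicle cells. Cluster 4 gave 63.5% with Itgb1 in GLPG0187 cells, 21.6% and 19.9% with Itgb3, 60.5% and 68.8% with Itgb5, and 17.8% and 22.0% with Itgb8, and cluster 0 gave 12.6% with Itgb8 in vehicle cells. Without modulated cells the vehicle shares were 62.9% with Itgb1, 60.4% with Itgb5 and 13.2% with Itgb8, and Xist-only GLPG0187 cells gave 15.8% with Itgb8. In macrophage-like cells, the Itgb5 call was lost with doublets kept (-0.57), in Y-only cells (-0.52), in Lyve1 or Folr2 cells (-0.55) and with no scaling (-0.57), and its range over alternatives was -1.27 to -0.52. Ratios that passed 1.5-fold under an alternative alone were Itgav in endothelial-like cells (0.93 in Y-only cells), Itgb8 in the Prss35/Tbx20 cluster (0.66 in the middle range of genes detected) and Itgb1 in Schwann-like cells (-0.81 in Xist-only cells and -0.74 in that middle range, against -0.38 as reported). The cause was not tested in any of these.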
